A study of Mus musculus with 6 samples.

Results

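Expression of 10 genes of the prostaglandin and lipoxin pathways, with annexin A1, was examined in mdx myoblasts exposed to PSB-KD107. The genes were Pla2g4a, Ptgs1, Ptgs2, Ptges, Ptges2, Ptges3, Ptgis, Alox5, Alox5ap and Anxa1. They were selected by their symbols, and each of these 10 symbols was found among the 47069 genes of the count table. All cells came from the mdx mouse, which lacks dystrophin and serves as a model of Duchenne muscular dystrophy. Muscle stem cells were sorted from mdx muscle by the absence of Sca-1, CD45, CD31 and CD11b and the presence of integrins, and were grown as myoblasts with serum and FGF2. One group received vehicle (3 libraries, numbered 1, 2 and 4) and the other 10 μM PSB-KD107 (3 libraries, with the same numbers). PSB-KD107 is a synthetic agonist of Gpr18, a receptor for the pro-resolving lipid resolvin D2. The sample records give a treatment of 2 days and the study's methods 16 h. The methods name 3 mice as the source of the cells, but not which mouse gave which library. They describe the mdx mice dosed in the study as C57BL/10 males aged 10 weeks, without saying whether the cultured cells came from animals of that age. No wild-type cells and no resolvin-treated cells belong to the libraries, so every value below refers to dystrophin-deficient myoblasts in culture.

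Prostaglandins and lipoxins are short-range lipid signals made from arachidonic acid. A cytosolic phospholipase A2 cuts the fatty acid from membranes, the cyclooxygenases turn it into prostaglandin H2, and terminal synthases convert that intermediate to prostaglandin E2, prostacyclin and other prostanoids. In a separate branch, 5-lipoxygenase and its helper protein start the synthesis of leukotrienes and contribute to that of lipoxins. Annexin A1 is a calcium-dependent phospholipid-binding protein that is induced by glucocorticoids, restrains phospholipase A2 activity and, when secreted, acts on formyl peptide receptors. In muscle, prostaglandins are known to act on the proliferation of muscle stem cells and the fusion of myoblasts, while annexin A1 takes part in membrane repair and in the resolution of inflammation.

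The libraries held between 30917613 and 48756794 counts, so that 3 counts, the lowest level read here as above 0, corresponded to 0.0596 to 0.0962 CPM, the count scaled to a common library size. CPM values were scaled by TMM factors of 0.974 to 1.033. The libraries did not sort by treatment alone. PSB-KD107 library 4 differed from every other library by a root mean square of 0.90 to 1.08 on the log2 scale over the genes tested, whereas vehicle library 1 was closer to PSB-KD107 library 1 (0.53) than to vehicle library 2 (0.72) or 4 (0.88). The 10 myoblast markers were all present and summed to 9800 to 10400 CPM in vehicle and 8680 to 10000 CPM in PSB-KD107. Of the 10, 4 had an estimate above 0 and 6 below, and 2, Pax7 and Myog, passed an unadjusted p of 0.05, both as lower (20.0%, beside 2.93% of all genes). The log2 fold change was -0.90 for the stem cell factor Pax7 (SE 0.17, edgeR adjusted p = 0.209, DESeq2 adjusted p = 0.0018) and -0.49 for the differentiation factor Myog (SE 0.18, edgeR adjusted p = 0.469, DESeq2 adjusted p = 0.203). Leukocyte and macrophage markers summed to 4.06 to 5.94 CPM in vehicle and 2.81 to 7.97 CPM in PSB-KD107, with Adgre1 and Tyrobp at 0 in every library. The sum for fibroblast and fibro-adipogenic markers was 1.68 to 5.89 CPM and 1.76 to 10.7 CPM, and for endothelial markers 0.31 to 1.4 CPM and 0.385 to 1.13 CPM. The highest fibroblast sum, that of PSB-KD107 library 4, came mostly from Ly6a, the gene of the sort marker Sca-1. Ly6a held 304 counts there, or 8.36 CPM, beside 0.155 to 1.29 CPM in the other libraries. Of 6 neutrophil and 6 mast cell markers, 5 each were at 0 in all libraries.

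The largest difference among the 10 genes was in Ptgs2, the inducible cyclooxygenase, which was 8.07-fold higher with PSB-KD107 in the fit. Anxa1 was higher by a smaller factor, 1.44-fold, but from a high level and with little spread between libraries. Ptges2 also had no vehicle library that reached the lowest PSB-KD107 library, although the gap was very narrow. The other genes either overlapped between the groups (Pla2g4a, Ptgs1, Ptges, Ptges3, Ptgis and Alox5) or were too low to be tested (Alox5ap).

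**Figure D1:**
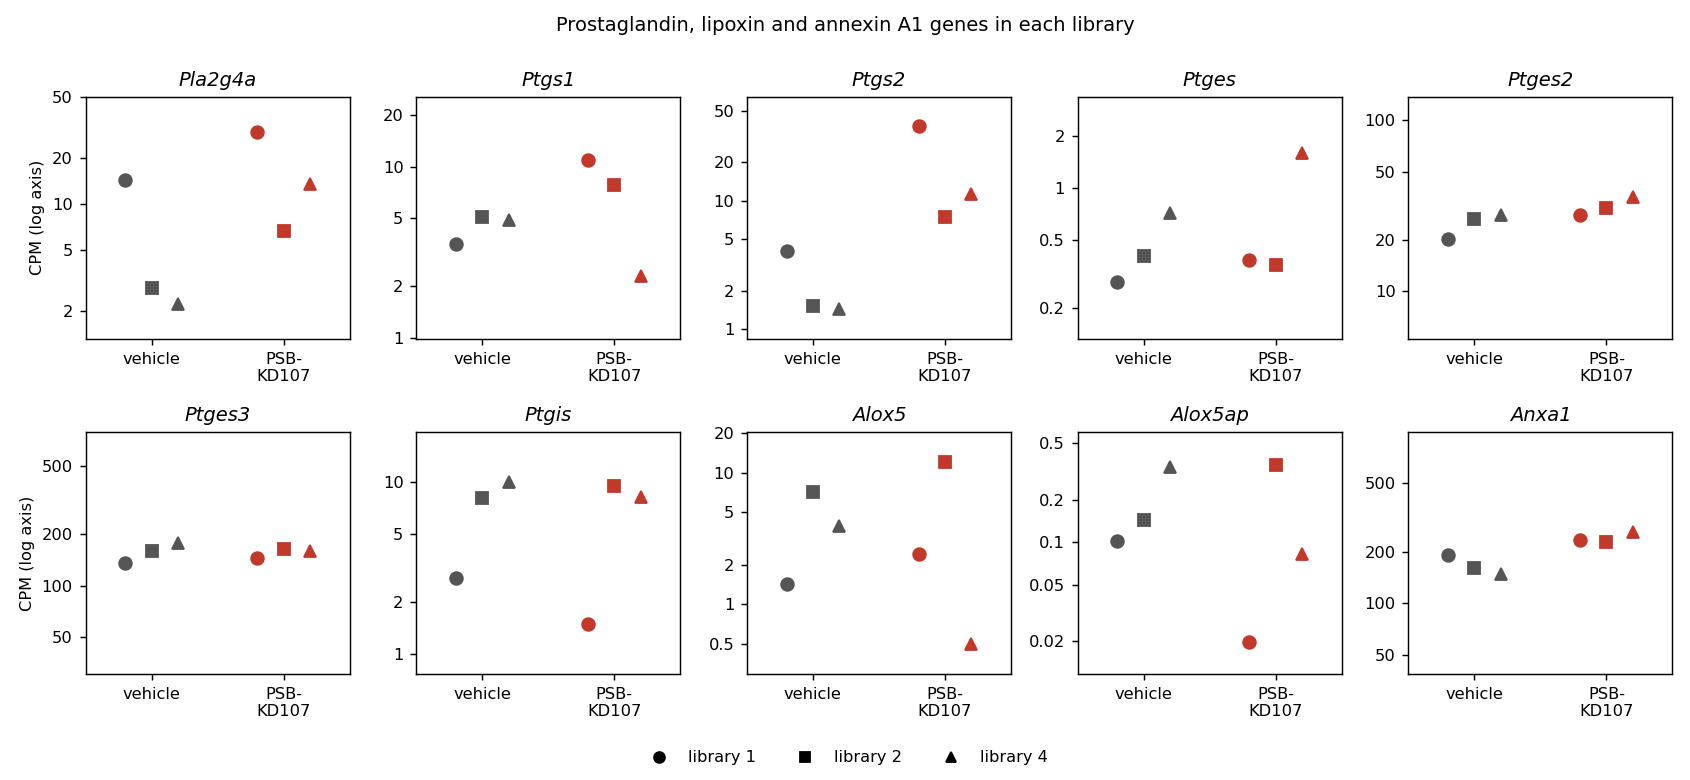
Level of each of the 10 genes in the 6 libraries, in CPM on a log axis whose range differs between panels, with vehicle at left in grey and PSB-KD107 at right in red and a marker shape for each library number. The 3 PSB-KD107 libraries lie above all 3 vehicle libraries for Ptgs2, Ptges2 and Anxa1, whereas the groups overlap for the other 7 genes.

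How far these differences exceeded the spread between libraries was read from edgeR's quasi-likelihood test over 14165 genes, with Benjamini-Hochberg adjustment over all of them. At an adjusted p under 0.05 edgeR called 0 of the 9 tested genes, and the share called over all genes was 0%. Ptgs2 and Anxa1 passed an unadjusted p of 0.05, both as higher, against 6.47% of all genes in that direction and 9.4% in either. DESeq2, the tool of the study's methods, called 1 of the 9 genes, Ptgs2, against 2.98% of the genes to which it gave an adjusted p and 2.26% for calls as higher. In simulated counts with the dispersions and depths of these libraries, 76 of 196 calls by DESeq2 were false, against 6 of 80 by edgeR. Of genes changed 2-fold there, DESeq2 called 44.9% and edgeR 10.2%, and of those changed 4-fold, 79.2% and 66.7%. The share of false calls depends on how many genes the simulation changed. Since edgeR called 80 genes there but 0 in the real libraries, that share cannot be carried over to the calls made here. With the library number as a block, DESeq2 called 2 of the 9, Ptgs2 and Pla2g4a, against 4.76% of genes, and edgeR on the libraries numbered 1 and 2 called 6, against 17.1%, but nothing in the records ties the numbers to animals. In 3 of the 9 genes the PSB-KD107 libraries all lay above the vehicle libraries, against 9.2% of all genes tested, and in 0 did they all lie below, against 6.59%. For 3 libraries against 3, the exact permutation test (two-sided) has 0.1 as its smallest possible p, which Ptgs2, Ptges2 and Anxa1 reached. The fitted value was above 0 in 7 of the 9 genes and below 0 in 2, beside 49.9% above 0 over all genes, and the median log2 fold change of the 9 was 0.53, beside 0 for all genes tested. Since RNA was pooled from each culture, a change in the number of cells that express a gene and a change in the amount of RNA per cell cannot be told apart.

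**Figure D2:**
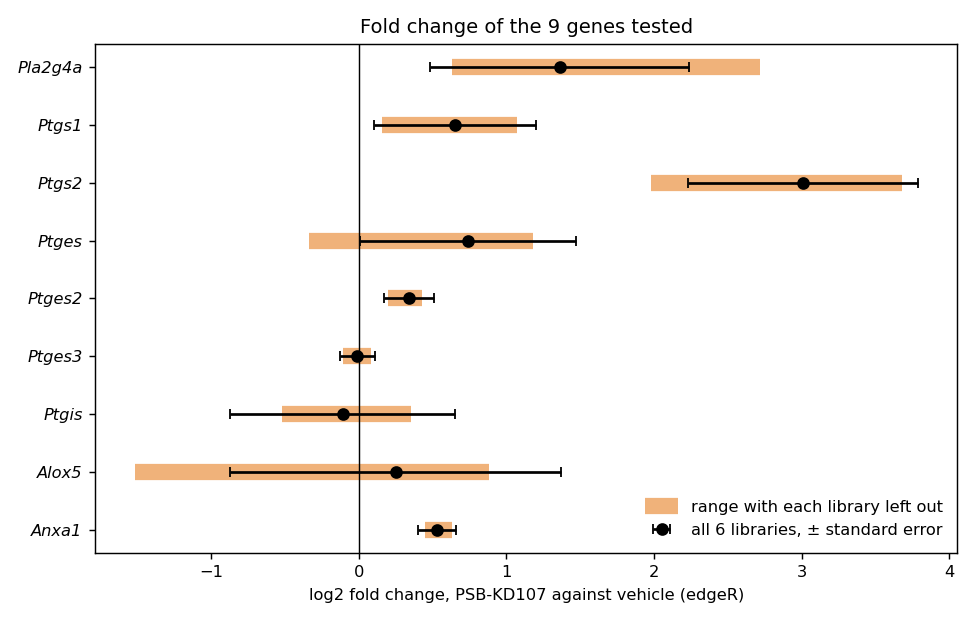
Log2 fold change of PSB-KD107 against vehicle from edgeR for the 9 genes tested, with bars for the standard error and a pale band for the range of the estimates that leave out 1 library. Ptgs2 (3.01) and Anxa1 (0.53) keep their sign with every library left out, while the bands of Alox5, Ptges, Ptges3 and Ptgis reach both sides of 0.

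Pla2g4a encodes the cytosolic phospholipase A2 that releases arachidonic acid. Its gene (ENSMUSG00000056220) lies on the minus strand of chr1:149829618-149961290 in GRCm38, next to Ptgs2 and pointing away from it. Vehicle libraries 1, 2 and 4 held 559, 98 and 72 counts, or 14.3, 2.81 and 2.23 CPM, and PSB-KD107 libraries 1, 2 and 4 held 1486, 208 and 493 counts, or 29.5, 6.67 and 13.6 CPM. Library 1 was the highest in each group, and vehicle library 1 lay above PSB-KD107 libraries 2 and 4, so the groups overlapped. The mean was 6.43 ± 6.79 CPM (SD, n = 3) in vehicle and 16.6 ± 11.7 CPM (SD, n = 3) in PSB-KD107. The log2 fold change of 1.36 (SE 0.88) had an adjusted p of 0.683 in edgeR and of 0.547 in DESeq2. This call turned on vehicle library 1: without it, the estimate was 2.72 and DESeq2 gave an adjusted p of 0.00143, whereas edgeR gave 0.373.

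Ptgs1 and Ptgs2 encode the cyclooxygenases COX-1 and COX-2, which catalyse the same step. COX-1 is made constitutively in many cell types, and COX-2 is known as an immediate response to growth factors, cytokines and mechanical load. Ptgs2 (ENSMUSG00000032487) lies on the plus strand of chr1:150100031-150108227. Vehicle libraries 1, 2 and 4 held 159, 53 and 46 counts, or 4.06, 1.52 and 1.43 CPM, and PSB-KD107 libraries 1, 2 and 4 held 1912, 231 and 409 counts, or 38.0, 7.41 and 11.3 CPM. The lowest PSB-KD107 library was above the highest vehicle library, and library 1 was the highest of each group. The mean was 2.33 ± 1.49 CPM (SD, n = 3) in vehicle and 18.9 ± 16.7 CPM (SD, n = 3) in PSB-KD107, so that the spread was wide within the treated group too.

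The log2 fold change of Ptgs2 was 3.01 (SE 0.78) in edgeR, with an unadjusted p of 0.00785 and an adjusted p of 0.326. Only 0.501% of the genes tested had a larger absolute change, and Ptgs2 ranked 70th among the upward changes by size but 340th by p. DESeq2 gave 3.00 (SE 0.68) with an adjusted p of 0.00102. The sign did not turn when any library was left out. The estimate fell to 1.98 without PSB-KD107 library 1 and reached 3.68 without vehicle library 1. With DESeq2, 4 of these 6 fits called Ptgs2, and the adjusted p was 0.0568 without vehicle library 2 and 0.0543 without vehicle library 4. None of the 6 edgeR fits called it.

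Ptgs1 (ENSMUSG00000047250, plus strand of chr2:36230426-36252272) did not follow that pattern. Vehicle libraries 1, 2 and 4 held 139, 177 and 157 counts, or 3.55, 5.07 and 4.87 CPM, and PSB-KD107 libraries 1, 2 and 4 held 552, 245 and 84 counts, or 10.97, 7.86 and 2.31 CPM. PSB-KD107 libraries 1 and 2 lay above all vehicle libraries and PSB-KD107 library 4 below them. The mean was 4.50 ± 0.828 CPM (SD, n = 3) in vehicle and 7.05 ± 4.39 CPM (SD, n = 3) in PSB-KD107. edgeR gave a log2 fold change of 0.65 (SE 0.55, adjusted p = 0.754). One library decided the call by DESeq2: without PSB-KD107 library 4 the estimate was 1.06 and its adjusted p 0.0149, against 0.781 with all libraries. On the TPM scale, which also corrects for the length of a gene's exons, the ratio of Ptgs2 to Ptgs1 was 0.97, 0.254 and 0.248 in vehicle libraries 1, 2 and 4 and 2.94, 0.80 and 4.13 in PSB-KD107 libraries 1, 2 and 4. COX-2 transcripts were thus the fewer in vehicle libraries 2 and 4 and the more numerous in PSB-KD107 libraries 1 and 4. In vehicle library 1 the levels were about equal, and in PSB-KD107 library 2 COX-2 was somewhat the lower. These ratios depend on the exon length used and are lower with the longest transcript. With that length the vehicle mean of Ptgs2 was 1.41 TPM in place of 1.80, and that of Ptgs1 4.25 TPM in place of 4.13.

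Because the neighbours Pla2g4a and Ptgs2 were both read high in library 1 of each group, their locus and start regions are shown with that of Ptgs1, the cyclooxygenase gene on another chromosome. The start sites of Pla2g4a and Ptgs2 are 139 kb apart, and the 3 annotated genes between them include 0 protein-coding genes. Across the 6 libraries the log2 CPM values of the pair had a Pearson r of 0.91, which is a description over libraries that share treatment and culture. Ptgs2os, a non-coding transcript of the opposite strand that begins 68 bases from the Ptgs2 start, held 3, 1 and 0 counts in vehicle and 15, 6 and 5 counts in PSB-KD107 and was too low to be tested. The strand setting of the counting is not given in the sources used here, and the annotated spans of Ptgs2 and Ptgs2os do not overlap.

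The following are 280 bases of RefSeq sequence (GRCm38.p6) from 250 bases before each start site to 30 bases from it onward, with the start site counted as base 1. They are written 5′ to 3′ on the strand of the gene, in lower case, with motif matches in capitals. The windows are chr1:150099781-150100060 (plus strand) for Ptgs2, chr1:149961261-149961540 (minus strand) for Pla2g4a and chr2:36230176-36230455 (plus strand) for Ptgs1.
Ptgs2: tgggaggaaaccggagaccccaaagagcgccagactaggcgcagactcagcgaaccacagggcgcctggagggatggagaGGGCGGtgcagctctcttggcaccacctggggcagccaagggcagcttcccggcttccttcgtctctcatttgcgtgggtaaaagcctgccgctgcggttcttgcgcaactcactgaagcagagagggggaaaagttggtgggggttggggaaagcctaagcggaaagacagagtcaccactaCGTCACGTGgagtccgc
Pla2g4a: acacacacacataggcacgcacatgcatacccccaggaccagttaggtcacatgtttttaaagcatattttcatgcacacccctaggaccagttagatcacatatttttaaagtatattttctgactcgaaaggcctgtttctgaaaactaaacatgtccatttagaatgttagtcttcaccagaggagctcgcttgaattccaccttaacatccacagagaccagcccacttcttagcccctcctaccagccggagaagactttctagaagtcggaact
Ptgs1: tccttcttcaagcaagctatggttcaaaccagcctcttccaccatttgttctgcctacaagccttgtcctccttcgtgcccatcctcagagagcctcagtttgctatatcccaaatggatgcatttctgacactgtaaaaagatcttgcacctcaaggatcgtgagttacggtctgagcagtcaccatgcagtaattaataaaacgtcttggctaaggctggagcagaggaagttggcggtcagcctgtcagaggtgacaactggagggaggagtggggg
In the Ptgs2 window the capitals mark a GC box 170 bases before the start and, from base 14 onward, the half-site of a cyclic AMP response element (CGTCA), which overlaps an E-box (CACGTG) that begins at base 17. These letters were searched on both strands in all 32851 promoter windows of this length. The half-site was present in 19.9% of them, the E-box in 6.79% and the GC box (GGGCGG) in 34.7%. Pla2g4a has a second start site in RefSeq, at position 149922439, whose window is not shown. That window held the letters of a TATA box on the opposite strand, 200 bases before the start, and of a CCAAT box from base 10 onward. The windows of Pla2g4a and Ptgs1 shown here held no half-site, E-box or GC box. They also held no TATA box (TATAAA, in 13.1% of windows), CCAAT box (CCAAT, 36.1%), AP-1 site (TGANTCA, 7.46%), ATF4 element (TGATGNAA, 3.81%) or NF-kB site (4.22%). Base composition differed as well, with G or C at 61.4% of positions for Ptgs2, 43.9% for Pla2g4a and 49.6% for Ptgs1, beside a median of 52.5% over all windows. Sequence was found for 8 of the 10 genes, and was not used here for Ptgis and Alox5ap. Of the other windows, that of Ptges3 held the half-site and that of Ptges2 the E-box, but no window of these genes other than that of Ptgs2 held both. The share of all windows that hold both was not counted.

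Prostaglandin E2 can be made from prostaglandin H2 by 3 synthases, which stood at very different levels. Ptges encodes the microsomal synthase that is usually induced together with COX-2 (ENSMUSG00000050737, minus strand of chr2:30889471-30929863). Its counts were 11, 14 and 23 in vehicle libraries 1, 2 and 4 and 19, 11 and 58 in PSB-KD107 libraries 1, 2 and 4, or 0.281, 0.401 and 0.714 CPM and 0.378, 0.353 and 1.60 CPM. Only PSB-KD107 library 4 lay above the vehicle libraries. The log2 fold change was 0.74 (SE 0.73, edgeR adjusted p = 0.787), and without PSB-KD107 library 4 it turned to -0.34.

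Ptges2, the membrane-associated synthase (ENSMUSG00000026820, plus strand of chr2:32395896-32405772), held 795, 919 and 902 counts in vehicle libraries 1, 2 and 4 and 1410, 953 and 1293 counts in PSB-KD107 libraries 1, 2 and 4. The values were 20.3, 26.3 and 28.0 CPM in vehicle and 28.0, 30.6 and 35.6 CPM in PSB-KD107. The highest vehicle library (27.98 CPM) and the lowest PSB-KD107 library (28.02 CPM) were all but equal. The mean was 24.9 ± 4.05 CPM (SD, n = 3) in vehicle and 31.4 ± 3.84 CPM (SD, n = 3) in PSB-KD107, a log2 fold change of 0.34 (SE 0.17, edgeR adjusted p = 0.615).

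Ptges3, the cytosolic synthase, which is also the p23 co-chaperone of Hsp90 (ENSMUSG00000071072, plus strand of chr10:128058954-128077272), was the most abundant of the 3 genes. It was read at 136, 160.2 and 176 CPM in vehicle libraries 1, 2 and 4 and at 146, 164 and 159.5 CPM in PSB-KD107 libraries 1, 2 and 4, from 5106 to 7332 counts per library. The groups lay over each other. The mean was 157 ± 20.6 CPM (SD, n = 3) in vehicle and 156 ± 9.45 CPM (SD, n = 3) in PSB-KD107, and the log2 fold change was -0.01 (SE 0.12, edgeR adjusted p = 0.984), the smallest standard error among the 9 genes.

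Ptgis encodes prostacyclin synthase (ENSMUSG00000017969, minus strand of chr2:167191805-167240604). Vehicle libraries 1, 2 and 4 held 108, 282 and 322 counts, or 2.76, 8.08 and 9.99 CPM, and PSB-KD107 libraries 1, 2 and 4 held 75, 298 and 299 counts, or 1.49, 9.56 and 8.23 CPM. Library 1 was the lowest in each group, the opposite of Ptgs2 and Pla2g4a, and the groups overlapped. The log2 fold change was -0.11 (SE 0.76, edgeR adjusted p = 0.971). Ptgis overlaps 1110018N20Rik on the opposite strand, a gene with 11 to 33 counts per library.

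Alox5 encodes 5-lipoxygenase (ENSMUSG00000025701, minus strand of chr6:116410077-116461178). Vehicle libraries 1, 2 and 4 held 56, 251 and 126 counts, or 1.43, 7.19 and 3.91 CPM, and PSB-KD107 libraries 1, 2 and 4 held 121, 374 and 18 counts, or 2.41, 12.0 and 0.495 CPM. PSB-KD107 libraries 2 and 4 were the highest and the lowest of all 6, and they bracketed the whole vehicle group. The log2 fold change was 0.25 (SE 1.12, edgeR adjusted p = 0.959), the largest standard error among the 9 genes, and it turned to -1.52 without PSB-KD107 library 2. Alox5 is known mainly from leukocytes. Of the 10 leukocyte and macrophage markers, Ptprc had at most 1 count in a library and Adgre1 and Tyrobp 0, whereas Itgam held 14 to 166 counts, Cd68 8 to 193 and Mrc1 25 to 64. The part of such cells in the level of Alox5 was not tested. Alox5ap, the membrane protein that presents arachidonic acid to 5-lipoxygenase (ENSMUSG00000060063, plus strand of chr5:149264767-149288153), held 4, 5 and 11 counts in vehicle libraries 1, 2 and 4 and 1, 11 and 3 counts in PSB-KD107 libraries 1, 2 and 4. These values lay near the floor of 3 counts, the groups overlapped, and the gene was removed by the filter on low counts.

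Anxa1 (ENSMUSG00000024659) lies on the minus strand of chr19:20373428-20390944. Vehicle libraries 1, 2 and 4 held 7499, 5602 and 4750 counts, or 191, 160.4 and 147 CPM, and PSB-KD107 libraries 1, 2 and 4 held 11708, 7100 and 9431 counts, or 233, 228 and 259.5 CPM. Every PSB-KD107 library was above every vehicle library, with a gap larger than the SD of either group. The mean was 166 ± 22.6 CPM (SD, n = 3) in vehicle and 240.0 ± 17.1 CPM (SD, n = 3) in PSB-KD107. edgeR gave a log2 fold change of 0.53 (SE 0.13), an unadjusted p of 0.00564 and an adjusted p of 0.284, which placed Anxa1 280th of all genes by p and so ahead of Ptgs2. DESeq2 gave 0.52 (SE 0.17) with an adjusted p of 0.0563. The call by DESeq2 changed with the genes entered, since on those kept by edgeR's filter the adjusted p was 0.0231, with 3.56% of those genes called. It also changed with the libraries, the adjusted p being 0.000698 without vehicle library 1 and 0.0602 to 0.455 without any other. The estimate itself stayed between 0.45 and 0.63 in edgeR with each library left out.

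Levels were compared between genes in TPM. In vehicle, Ptges3 (253 ± 37.1 TPM, SD, n = 3) and Anxa1 (203 ± 24.4 TPM) were the most abundant, with overlapping ranges. Ptges2 followed at 17.5 ± 3.11 TPM, below Anxa1 by 11.6 times and with no overlap. Ptgis (9.68 ± 5.33 TPM), Ptgs1 (4.13 ± 0.804 TPM), Alox5 (3.63 ± 2.51 TPM), Pla2g4a (3.55 ± 3.70 TPM) and Ptgs2 (1.80 ± 1.13 TPM) came next. From Ptges2 down to Ptgs2, neighbours in this order could not be told apart by their ranges. Alox5ap (0.494 ± 0.331 TPM) and Ptges (0.423 ± 0.210 TPM) were the lowest and overlapped each other, with a gap of 3.66 times below Ptgs2.

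With PSB-KD107 the order of the 10 genes differed. Anxa1 (298 ± 13.3 TPM) stood above Ptges3 (255 ± 16.1 TPM) with no overlap, by 1.17 times, and Ptges2 (22.4 ± 2.23 TPM) again came next without overlap. Ptgs2 was now next at 15.0 ± 13.4 TPM, ahead of Pla2g4a (9.39 ± 6.73 TPM), Ptgis (9.03 ± 6.11 TPM), Ptgs1 (6.62 ± 4.18 TPM) and Alox5 (4.44 ± 5.54 TPM). From Ptges2 down to Alox5ap (0.390 ± 0.461 TPM) all neighbours overlapped. The order depends on the length given to each gene. With the longest transcript in place of all exons, Anxa1 was ahead of Ptges3 in vehicle too (268 against 213 TPM), Pla2g4a (4.97 TPM) was ahead of Ptgs1 (4.25 TPM) and Alox5 (3.18 TPM) in vehicle, and with PSB-KD107 Pla2g4a (13.1 TPM) was ahead of Ptgs2 (11.6 TPM).

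**Figure D3:**
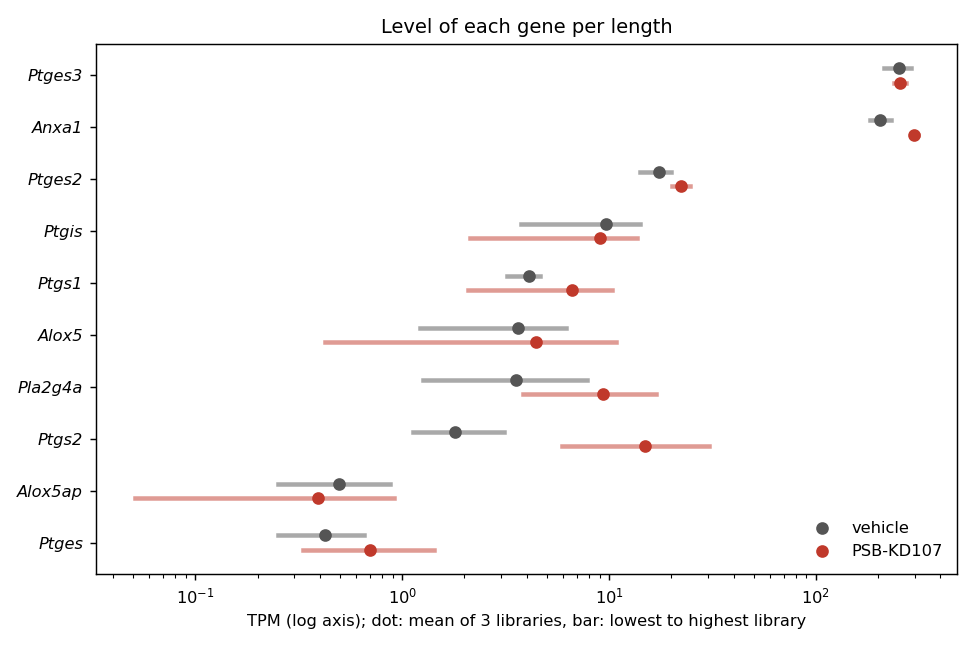
Levels of the 10 genes in TPM on a log axis, with points for the mean and lines from the lowest to the highest of 3 libraries in vehicle (grey) and PSB-KD107 (red). Ptges3 and Anxa1 lie above 200 TPM in the mean of both groups, and Ptgs2 moves from below Pla2g4a, Ptgis, Ptgs1 and Alox5 in vehicle (1.80 TPM) to above them in PSB-KD107 (15.0 TPM), though not above Pla2g4a when the longest transcript sets the length (11.6 against 13.1 TPM).

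The other genes of these pathways were read from lists of 89 genes, of which 88 were found in the table and 44 passed the filter on low counts. edgeR called 0 of the 44 at an adjusted p under 0.05. At an unadjusted p under 0.05, 4 were higher (9.09%, beside 6.47% of all genes) and 1 was lower (2.27%, beside 2.93%), and the median log2 fold change was 0.14. DESeq2 called 3 of them, Pla2g2e, Fads1 and Mgst3, all as higher, beside 2.98% of all genes called and 2.26% called as higher. The groups did not overlap in 7 of the 44 with PSB-KD107 higher and in 4 with it lower, beside 15.8% of all genes in either direction.

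Upstream of the cyclooxygenases, 3 of 13 tested phospholipases and genes of arachidonate handling passed an unadjusted p of 0.05, all as higher. Their share was 23.1%, beside 6.47% of all genes. The groups did not overlap in 6 of the 13 (46.2%, beside 15.8% of all genes in either direction). PSB-KD107 was higher in 5 of these 6 and lower in 1, Pla2g4b (log2 fold change -0.72, SE 0.32, edgeR adjusted p = 0.585). As this list was chosen with earlier results of these data known, its shares are a description only. Pla2g2e, a secreted phospholipase A2, held 29, 21 and 16 counts in vehicle and 98, 72 and 88 counts in PSB-KD107. Its groups lay far apart relative to their spread, with a log2 fold change of 1.85 (SE 0.29, edgeR adjusted p = 0.184, DESeq2 adjusted p = 6e-05). Fads1, the delta-5 desaturase that completes the synthesis of arachidonic acid, held 1514, 594 and 370 counts in vehicle and 3994, 2244 and 1918 counts in PSB-KD107. Its groups did not overlap in CPM, and the log2 fold change was 1.60 (SE 0.46, edgeR adjusted p = 0.378, DESeq2 adjusted p = 0.0208). Pla2g12a, another secreted phospholipase, had a log2 fold change of 0.51 (SE 0.19, edgeR adjusted p = 0.478). The most abundant gene of this list was Acsl4, which couples arachidonic acid to coenzyme A, at 218 ± 22.8 TPM (SD, n = 3) in vehicle and with a log2 fold change of 0.33 (SE 0.14, edgeR adjusted p = 0.571).

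Downstream, none of 5 tested other prostanoid synthases and none of 5 genes of prostaglandin breakdown and transport passed an unadjusted p of 0.05. The prostaglandin D2 synthase of mast cells and other blood cells, Hpgds, was at 0 in all libraries, and thromboxane synthase, Tbxas1, had at most 2 counts. Ptgds, the other prostaglandin D2 synthase listed, held 303, 188 and 195 counts in vehicle and 781, 366 and 89 counts in PSB-KD107. The Ptgds groups overlapped (log2 fold change 0.63, SE 0.62). Akr1b8, an aldo-keto reductase, was the most abundant gene of the synthase list (408 ± 104 TPM in vehicle, log2 fold change -0.41, SE 0.33). Whether it serves as a prostanoid synthase in these cells was not tested. Akr1b3, another aldo-keto reductase listed, was at 162 TPM in vehicle (log2 fold change -0.14, SE 0.26). Ptgr2, which reduces 15-keto-prostaglandins, was the most abundant of the breakdown genes (log2 fold change 0.40, SE 0.20). Hpgd, the dehydrogenase that inactivates prostaglandin E2, held 7, 12 and 13 counts in vehicle and 6, 22 and 43 counts in PSB-KD107. Its groups overlapped.

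In the leukotriene branch, Mgst3, a microsomal glutathione transferase, held 419, 374 and 362 counts in vehicle and 733, 726 and 936 counts in PSB-KD107. The groups did not overlap, and the log2 fold change was 0.96 (SE 0.23, edgeR adjusted p = 0.284, DESeq2 adjusted p = 0.0183). Ggt5, a gamma-glutamyl transferase that processes leukotriene C4, held 33, 26 and 26 counts in vehicle and 12, 14 and 2 counts in PSB-KD107, with a log2 fold change of -1.69 (SE 0.64, edgeR adjusted p = 0.497). The enzyme of leukotriene B4 synthesis, Lta4h, had a log2 fold change of 0.04 (SE 0.19). Leukotriene C4 synthase, Ltc4s, had at most 14 counts. Of 6 other lipoxygenases, 0 passed the filter. Alox15, whose product is a precursor of lipoxins and resolvins, had 2 counts in vehicle library 1 and 0 in the others, and Alox12 had at most 8 counts.

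**Figure D4:**
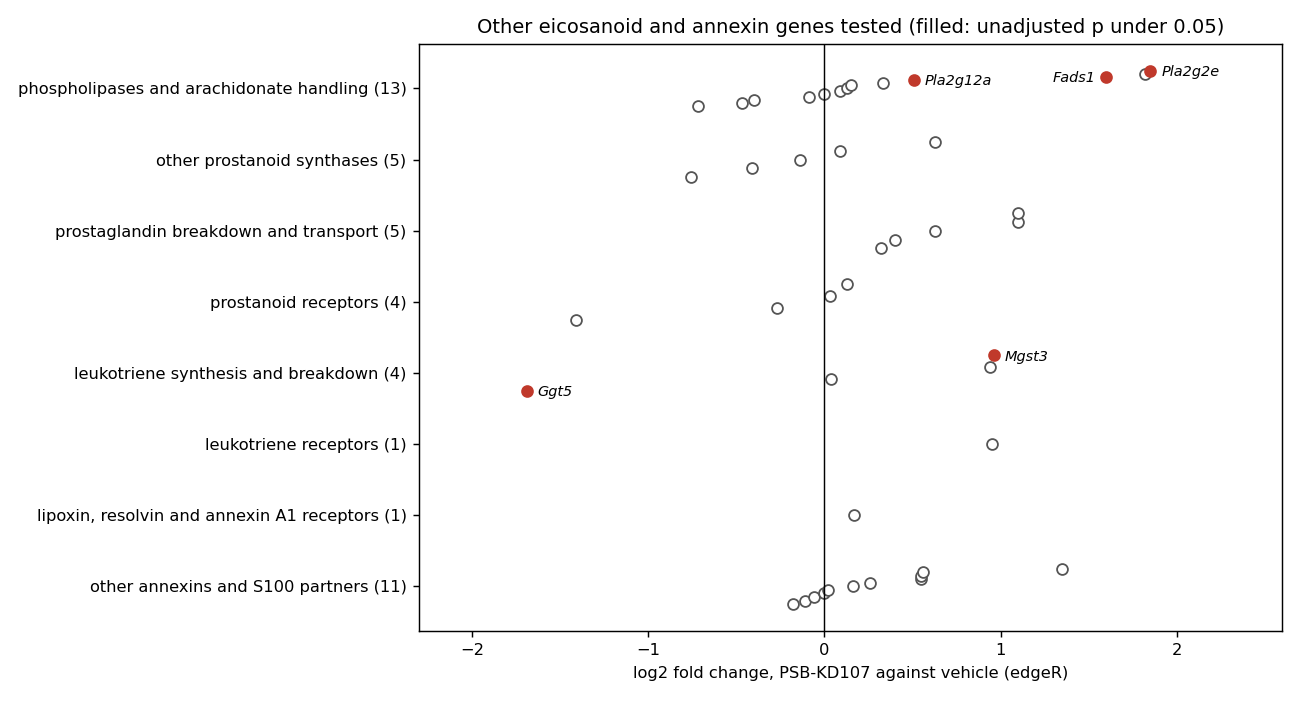
Log2 fold change of PSB-KD107 against vehicle from edgeR for the 44 other pathway genes tested, by list, with filled red points at an unadjusted p under 0.05. The 5 filled points are Pla2g2e (1.85), Fads1 (1.60), Pla2g12a (0.51), Mgst3 (0.96) and Ggt5 (-1.69), and none has an adjusted p under 0.05.

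Receptors for the products were for the most part low or at 0. Of the receptors for prostaglandin E2, Ptger4 was the highest, with 457, 250 and 185 counts in vehicle and 334, 213 and 425 counts in PSB-KD107 (log2 fold change 0.03, SE 0.36). Ptger1 held 47, 25 and 9 counts and 34, 17 and 22 counts, whereas Ptger2 and Ptger3 had at most 2 counts in a library. Both tested receptors overlapped between the groups. The prostacyclin receptor Ptgir held 30, 5 and 5 counts in vehicle and 35, 2 and 4 counts in PSB-KD107, the prostaglandin F receptor Ptgfr at most 9, Ptgdr2 at most 5, and Ptgdr 0 in all libraries. The thromboxane receptor Tbxa2r held 18, 14 and 17 counts in vehicle and 5, 11 and 3 counts in PSB-KD107, without overlap (log2 fold change -1.41, SE 0.60, edgeR adjusted p = 0.55). Ptgfrn, a membrane protein that associates with the prostaglandin F receptor, was the most abundant of this list (68.7 TPM in vehicle) and had a log2 fold change of 0.13 (SE 0.45).

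Among receptors for lipoxins, resolvins and annexin A1, 1 of 8 passed the filter. Fpr1 and Fpr3 were at 0 in all libraries and Fpr2, the receptor shared by lipoxin A4 and annexin A1, had 1 count in vehicle library 4 and 0 elsewhere. Gpr18, the target of PSB-KD107, was at 0 in every library, which allows a level of up to 0.0596 to 0.0962 CPM depending on depth. This is a value for RNA only. The study refers to its earlier work for Gpr18 expression in mouse myoblasts. It detected the protein by Western blot in human myoblasts derived from stem cells, and reports Akt phosphorylation in mdx myoblasts after PSB-KD107. Cmklr1, the resolvin E1 receptor, had 8 counts in vehicle library 1 and 0 in the others, Lgr6 had at most 4 counts, and Gpr101 was at 0. Gpr37, known from neurons and macrophages as a protectin receptor, was the exception with 667 to 1271 counts (log2 fold change 0.17, SE 0.22). For leukotrienes, Ltb4r1 and Ltb4r2 had at most 3 counts, and Cysltr1 held 135, 19 and 4 counts in vehicle and 174, 18 and 144 counts in PSB-KD107, a spread wider than the difference between groups.

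Of 14 other annexins and S100 partners, 11 passed the filter and 0 had an unadjusted p under 0.05. Anxa2, a binding partner of S100a10, at 555 ± 32.1 TPM (SD, n = 3) in vehicle, had a log2 fold change of -0.18 (SE 0.12). Anxa3 (1.35, SE 0.66) and Anxa5 (0.55, SE 0.31) had larger estimates than Anxa1 or similar ones, but with a spread that left their groups overlapping. S100a11, a calcium-binding partner of annexin A1, was read at 977 ± 27.3 TPM in vehicle and had a log2 fold change of -0.11 (SE 0.13).

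The genes whose log2 CPM over the 6 libraries, after centring, lay closest to that of Ptgs2 were Bcat1, the cytosolic branched-chain aminotransferase (root mean square difference 0.33, r = 0.99), Anpep, aminopeptidase N (0.37, r = 0.974) and Procr, the endothelial protein C receptor (0.46, r = 0.969). Bcat1, for instance, was read at 2.27, 0.544 and 0.341 CPM in vehicle and at 20.8, 3.37 and 4.37 CPM in PSB-KD107, with library 1 again the highest of each group. Those closest to Anxa1 were Myo1d, an unconventional myosin, Idua, a lysosomal hydrolase, and Ralb, a small GTPase, each at a root mean square difference of 0.06 (r = 0.996, 0.981 and 0.981). Ralb was read at 26.1, 22.2 and 22.1 CPM in vehicle and at 32.4, 29.4 and 36.1 CPM in PSB-KD107. These are the nearest of 14165 genes over 6 libraries and are given as a description.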

How the data were processed

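RNA of mdx myoblasts was sequenced by the authors as 100-bp paired-end reads, aligned with STAR to the mouse genome (mm10), and deposited as raw counts per gene, with no normalization. The counting program and its strand setting are not given in the sources used here. Groups followed the sample labels and the column names, which share the numbers 1 and 2; the libraries numbered 4 were assigned to a group only. Genes, coordinates and exon lengths came from GENCODE M21, and promoter sequences from RefSeq.

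Counts were filtered with filterByExpr, scaled by TMM and tested with edgeR's quasi-likelihood test (treatment only) at an adjusted p of 0.05 over all genes tested. DESeq2 on the whole table, limma-voom and other settings were alternatives. DESeq2 with libraries left out, with a block, or on filtered genes was added after seeing the data. TPM used all annotated exon bases. Errors after ± are SDs over libraries, and floors of 3 counts cover counting error only. The standard error given for edgeR was derived from its test, as the absolute log2 fold change divided by the square root of the F statistic. That given for DESeq2 is its own estimate. The scripts were tested on simulated counts, in which DESeq2 was run on the genes kept by the filter.

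The genes and pathway lists were chosen with earlier results of these data known. Named were all 10 genes, in each pathway list those with an unadjusted p under 0.05 (at most 3) and the most abundant by TPM, the receptors, and the 3 genes nearest in pattern to Ptgs2 and Anxa1. The other pathway genes, and the markers Pax7, Myog, Ly6a, Itgam, Cd68 and Mrc1, were picked after their values were seen. R 4.3.3, edgeR 4.0.16, limma 3.58.1, DESeq2 1.42.0, Python 3.11.15 and pandas 2.3.3 were used.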

Additional observations from a re-analysis of the deposited data

How the results depend on the processing

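Ptgs2, Anxa1, Pla2g4a, Ptgs1 and Ptges2 had the same sign in each of 22 alternatives, and the sign of the other 4 genes tested turned in some. For Alox5 the log2 fold change was -0.51 with limma-voom, -0.30 with a replicate block over all 6 libraries, -0.34 with DESeq2 and that block, and -1.52 to 0.88 with a library left out (-1.53 to 0.87 in DESeq2, with -0.18 without vehicle library 1). For Ptges3 it was 0.07 on the libraries numbered 1 and 2 with a replicate block, 0.06 without the block, and -0.11 to 0.08 with a library left out (in DESeq2 0.07 without vehicle library 4 and 0.03 without PSB-KD107 library 1). For Ptgis it was 0.02 on these 4 libraries without the block and -0.52 to 0.35 with a library left out (in DESeq2 0.23 without vehicle library 4 and 0.35 without PSB-KD107 library 1), and for Ptges -0.34 to 1.18. RLE factors, the newer form of edgeR's fit and the removal of the filter gave the same counts of members as reported.

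Of the 9 genes, DESeq2 called 1, DESeq2 on filtered genes 2, DESeq2 with the block 2 and DESeq2 with a library left out 0 to 3, whereas edgeR with a library left out called 0. The numbers do not show how the libraries pair. The records do not tie them to animals, and the deviations of same-numbered libraries correlated at 0.63 (number 1), 0.52 (number 2) and -0.13 (number 4). With a replicate block on the libraries numbered 1 and 2, which leaves 1 residual degree of freedom, edgeR called 6 of the 9 genes and 17.1% of all genes, while with the block over all 6 libraries it called 0. At an unadjusted p under 0.05, these blocked fits gave 6 and 4 members, DESeq2 with the block 4, and 25, 9 and 9 of the other pathway genes. With a library left out the latter were 3 to 11 in edgeR and 3 to 12 in DESeq2, and the members 2 to 3 in both. The median of the members was 0.39 with and without the block on libraries 1 and 2, 0.42 with the block over 6, 0.41 with DESeq2 and the block, 0.45 to 0.64 with a library left out and 0.44 to 0.63 in DESeq2. The cause of these differences was not tested.

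As for depth, Alox5ap, the other lipoxygenases and most receptors fell under the filter on low counts, and Ptges had 11 to 58 counts per library.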
